A study of Mus musculus with 6 samples.

Results

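The regions described here were the sites of mouse primary cardiac fibroblasts at which CUT&Tag signal of a T set and of an S set was dense in unstimulated (NC) cells, and in particular the sites where regions of both sets overlapped. CUT&Tag uses an antibody to direct a transposase to chromatin, so that reads accumulate where the target of the antibody sits. Members were chosen by a measured value, a normalized read density of 5 or more in the NC library, with the mitochondrial sequence left out. In the T set this selected 79375 of 170877 regions (46.5%), and in the S set 27035 of 52712 regions (51.3%). T set and S set members on the same chromosome that shared at least 1 bp were called overlapping. This gave 3573 overlapping T set regions, 3487 overlapping S set regions, 75802 T only regions and 23548 S only regions.

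The study profiled chromatin for TAZ and SRF, factors that respond to mechanical cues, and asked whether the ion channel Piezo2 is needed for the fibrogenic signal to reach them. The 6 libraries came from primary fibroblasts of the heart, and each set held 1 library of NC cells, 1 of cells given TGF-b and 1 of cells given TGF-b with an siRNA. The labels give no antibody, so T is only inferred to mean TAZ and S to mean SRF. They name the siRNA SiTAZ in the T set and SiSRF in the S set whereas the methods describe siRNA against Piezo2, and neither source gives the age or number of the animals behind a library. The labels state no strain, whereas the methods place the mice of the study on a C57BL/6J background. The design text of the series speaks of Tet3 knockout by Cre, which no sample label mentions. With 1 library per group no difference could be tested over samples, and the Wilson 95% intervals given below cover counting error only.

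TAZ (gene Wwtr1) is a coactivator of the Hippo pathway that has no DNA-binding domain of its own and reaches DNA mainly through TEAD factors, whose sites carry the letters GGAATG. SRF binds CArG boxes directly and, with its MRTF or ternary complex cofactors, drives cytoskeletal, contractile and immediate early genes. Both respond to tension in the actin cytoskeleton, and in fibroblasts both are known for their part in the change into contractile, matrix-producing myofibroblasts. TGF-b is the cytokine commonly used to bring this change about.

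The promoters below belong to genes with overlapping or T only sites and are shown as examples. Vcl, Amotl2 and Wipi1 had an overlapping pair at the gene start, and Ankrd1 had a T only region there, at a distance of -56. The densest T only region of Srf lay at -1861 from its start, outside the bases shown. Each line holds the 250 bases before the start of the gene from RefSeq (build GRCm38.p6), 5′ to 3′ on the strand of the gene. Capitals mark matches on either strand to GGAATG (TEAD), the CArG box, TGANTCA (AP-1), CCGGAA (ETS), GGGCGG (SP and KLF factors) or CCAAT (NF-Y), some of which adjoin or overlap each other.
Vcl: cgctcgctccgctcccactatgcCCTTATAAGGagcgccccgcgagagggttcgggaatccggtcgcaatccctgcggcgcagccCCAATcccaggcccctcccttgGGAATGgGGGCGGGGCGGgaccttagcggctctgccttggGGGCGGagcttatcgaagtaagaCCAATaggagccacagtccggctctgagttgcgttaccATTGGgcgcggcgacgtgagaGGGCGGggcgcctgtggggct
Amotl2: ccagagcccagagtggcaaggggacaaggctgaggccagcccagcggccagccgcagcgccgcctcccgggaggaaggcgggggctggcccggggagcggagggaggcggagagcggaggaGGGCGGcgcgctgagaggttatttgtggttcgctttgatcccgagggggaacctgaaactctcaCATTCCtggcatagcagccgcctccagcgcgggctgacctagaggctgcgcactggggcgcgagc
Wipi1: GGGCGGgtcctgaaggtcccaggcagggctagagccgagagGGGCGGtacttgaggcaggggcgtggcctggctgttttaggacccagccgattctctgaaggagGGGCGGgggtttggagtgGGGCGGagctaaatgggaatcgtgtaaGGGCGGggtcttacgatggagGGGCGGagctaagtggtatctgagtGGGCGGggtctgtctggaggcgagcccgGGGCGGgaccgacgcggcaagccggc
Ankrd1: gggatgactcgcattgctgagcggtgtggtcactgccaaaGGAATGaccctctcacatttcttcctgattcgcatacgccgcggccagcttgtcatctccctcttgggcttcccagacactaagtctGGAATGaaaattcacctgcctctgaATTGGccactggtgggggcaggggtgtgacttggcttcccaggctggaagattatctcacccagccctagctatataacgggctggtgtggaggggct
Srf: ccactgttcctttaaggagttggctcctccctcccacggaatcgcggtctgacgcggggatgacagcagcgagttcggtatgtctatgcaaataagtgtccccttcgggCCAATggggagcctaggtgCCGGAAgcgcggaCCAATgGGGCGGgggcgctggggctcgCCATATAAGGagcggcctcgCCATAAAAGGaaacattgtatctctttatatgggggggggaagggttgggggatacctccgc

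The sequences lie at chr14:20929148-20929397 on the plus strand (Vcl), chr9:102717554-102717803 on the plus strand (Amotl2), chr11:109611390-109611639 on the minus strand (Wipi1), chr19:36119845-36120094 on the minus strand (Ankrd1) and chr17:46556163-46556412 on the minus strand (Srf). The regions themselves are given in GRCm39 coordinates and were not placed on these bases. Vcl held a CArG box starting at position -227 and a TEAD match at -143, counted from the gene start. Amotl2 held a TEAD match at -65 and Ankrd1 held TEAD matches at -210 and -123. Srf held CArG boxes at -82 and -62 and Wipi1 held 8 SP and KLF matches but neither a TEAD match nor a CArG box. Among 27025 promoters of 300 bases in the same table, 14.6% held the TEAD letters, 1.57% a CArG box, 7.93% AP-1, 15.2% ETS, 35.9% SP and KLF and 37.9% NF-Y. Of 836 genes there with an overlapping promoter pair, 11.1% held TEAD letters, 1.32% a CArG box and 81.9% SP and KLF letters. Those with a T set but no S set promoter region (4163) gave 13.2%, 1.71% and 61.0%. Those with an S set but no T set one (639) gave 13.8%, 1.25% and 48.0%. The promoters printed are single examples and do not stand for these groups. A match describes the letters in this window and not a bound site.

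Depth per region was low. A read contributes 0.5 to the density, which corresponds to a window of 2 kb around the region. T set members held a median of 16 NC reads (10 to 6547) and S set members a median of 11 (8 to 24275). The members just inside the threshold had a density of 5.1 for T (10 reads, 8052 regions) and 5.44 for S (8 reads, 4232 regions), and those just outside had 4.95 (9 reads, 9036 regions) and 4.97 (7 reads, 4678 regions). Membership at the threshold therefore turned on 1 read. Members with 500 reads or more numbered 10 for T (all 10 overlapping, 8 with no gene assigned) and 24 for S (21 overlapping, 19 with no gene assigned), and those of the S set held 17.8% of all reads over its members. Promoter regions were found for 2 of 5 fibroblast marker genes with a row, 1 of 10 cardiomyocyte, 3 of 9 endothelial and 1 of 8 macrophage markers in the T set, and for none of these in the S set. Of all genes, 29.4% had a T set promoter region and 9.47% an S set one, and with so few markers these counts do not check the labelled cell type.

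The first question was how often the sets met. Overlapping regions made up 4.50% of the T set members (4.36% to 4.65%) and 12.9% of the S set members (12.5% to 13.3%). The shares depend on how many regions each set holds and on what counts as meeting. With equal numbers of regions, the densest 27035 T set members beside all 27035 S set members, they were 8.66% for T and 8.41% for S. With midpoints within 1 kb in place of shared bases they were 8.06% and 20.3%. Overlapping regions formed 3611 pairs, and 3535 of the T set regions and 3371 of the S set regions belonged to 1 pair each. The members of a pair lay close together. The shared stretch had a median of 133 bp (quartiles 76 and 217), the midpoints were a median of 44 bp apart (90th percentile 136 bp), and in 1733 pairs (48.0%) 1 region lay wholly inside the other. In 137 pairs (3.79%) both regions began at the same base. The assigned gene was the same in 3506 pairs (97.1%) and the annotation class in 3275 pairs (90.7%).

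Overlap was found on all autosomes and chromosome X. Its share of the S set members ranged from 7.41% on chromosome X (26 of 351, 5.11% to 10.6%) to 19.45% on chromosome 19 (114 of 586, 16.4% to 22.9%), and the share of the T set members from 2.26% on chromosome X (26 of 1151, 1.55% to 3.29%) to 5.36% on chromosome 19 (117 of 2185, 4.49% to 6.38%). Chromosome X was thus the lowest and chromosome 19 the highest in both sets, with intervals that did not overlap each other.

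Where regions overlapped, they lay at gene starts far more often than the regions without overlap. Promoter regions, as the authors annotated them, made up 37.9% of overlapping T set regions (1354, 36.3% to 39.5%) and 36.9% of overlapping S set regions (1286, 35.3% to 38.5%). The share was 9.93% among T only regions (7523, 9.71% to 10.1%) and 4.77% among S only regions (1122, 4.50% to 5.04%). Over all rows of the tables it was 7.66% for T and 7.20% for S. Regions in a 5′ UTR showed the same order, with 5.93% and 6.80% of the overlapping T set and S set regions against 1.58% of T only and 0.943% of S only regions.

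Introns and stretches with no gene assigned took the larger part of the regions without overlap. Introns held 23.1% of overlapping T set regions (827) and 23.5% of overlapping S set regions (819) against 45.9% of T only (34802) and 38.0% of S only regions (8940). No gene was assigned to 28.4% (1015) and 28.0% (977) of the overlapping regions, to 35.6% of T only regions (26996) and to 50.45% of S only regions (11880). Exons differed little, at 3.22% and 3.47% of the overlapping regions, 3.98% of T only and 3.48% of S only regions.

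**Figure D1:**
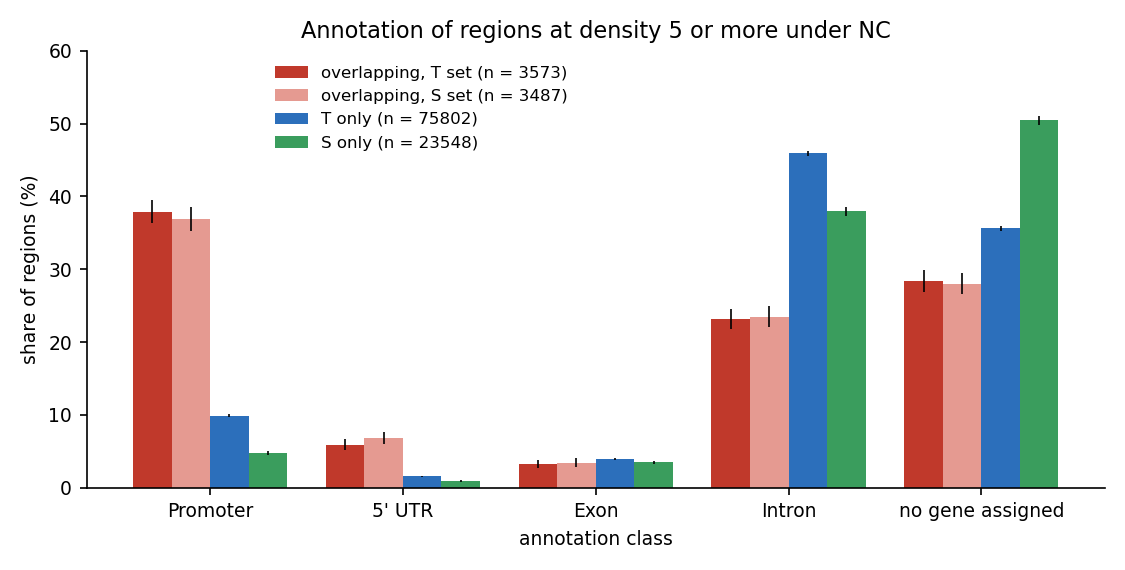
Share of regions (%) in each annotation class for the overlapping regions of either set and for T only and S only regions, with Wilson 95% intervals as bars. Promoters hold 37.9% and 36.9% of the overlapping regions but 9.93% and 4.77% of the others.

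Seen from the other side, S set promoter regions met a T set region more often than S set regions in introns did. Of 2408 S set promoter regions, 53.4% overlapped (51.4% to 55.4%), as did 51.6% of 459 regions in a 5′ UTR (47.1% to 56.2%). The share was 8.39% of 9759 intron regions (7.86% to 8.96%) and 7.60% of 12857 regions with no gene assigned (7.15% to 8.07%). The promoter share was 40.3% with only peaks called in NC (597 of 1482, 37.8% to 42.8%), 42.1% with equal numbers of regions (40.15% to 44.1%) and 49.0% of regions within 1 kb of a gene start (47.3% to 50.7%), so that it was not above 50% under all settings. T set regions showed the same split at a lower level, and with equal numbers of regions the promoter shares were 22.6% for T and 42.1% for S. Over all members, 15.3% of 8877 promoter regions (14.5% to 16.0%) and 15.1% of 1407 regions in a 5′ UTR overlapped, but 2.32% of 35629 intron regions (2.17% to 2.48%) did.

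The most frequent place of overlapping regions with respect to gene starts was just before the start, although fewer than 50% lay within 1 kb of one (47.2% in either set). In the 200 bp before the start lay 30.0% of the overlapping T set regions (1072) and 29.4% of the overlapping S set regions (1025), against 4.84% of T only regions (3671) and 1.71% of S only regions (402). The next 200 bp, inside the gene, held 7.81% and 9.18% of the overlapping regions. Among regions with a gene assigned, the median distance to the start was 0.173 kb in both overlapping groups, 9.06 kb for T only and 15.4 kb for S only regions.

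**Figure D2:**
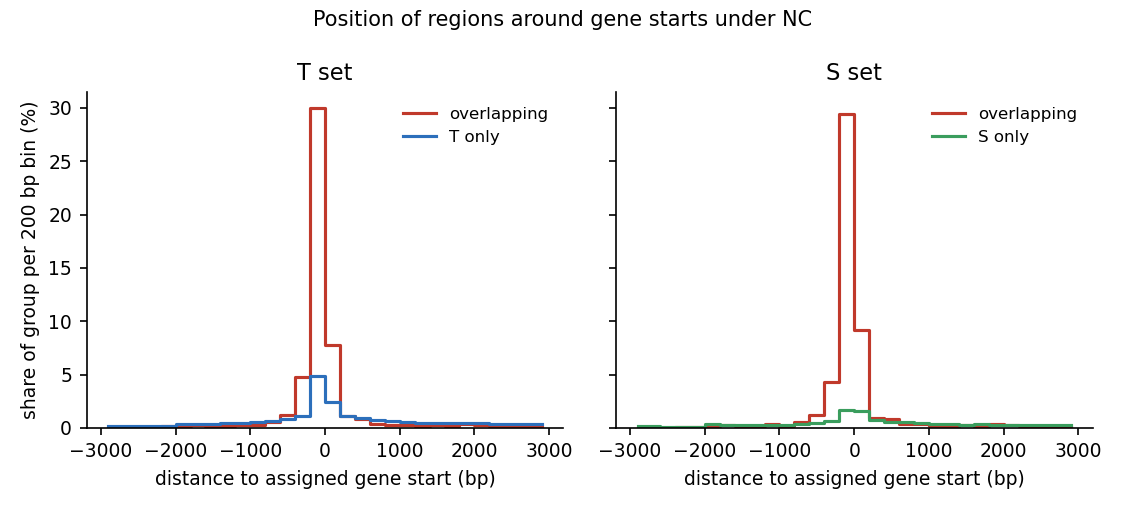
Share of each group (%) per 200 bp bin of the distance (bp) from the region to the start of its assigned gene, negative before the start, in the T set (left) and the S set (right). The overlapping regions peak at 30.0% and 29.4% in the bin just before the start, where T only and S only regions reach 4.84% and 1.71%.

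The density that selected the members also differed between the groups, and is given as a description. Densities of the sets come from tables normalized separately and are compared within a set only. Overlapping T set regions had a median NC density of 13.3 (quartiles 8.44 and 21.7, a median of 26 reads), and T only regions 8.08 (6.23 and 11.3, 16 reads). Overlapping S set regions had a median of 8.50 (6.71 and 11.5, 13 reads), and S only regions 7.31 (6.11 and 9.09, 11 reads). The quartile ranges thus overlapped in both sets, more so in the S set. Overlapping regions were also wider, with a median of 214 bp against 98 bp in the T set and 187 bp against 103 bp in the S set, and a wider region has more bases in which to meet another.

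In promoters the gap in density was largest for the T set, with a median of 17.0 in overlapping and 9.87 in T only promoter regions. The corresponding S set medians were 8.52 and 7.33. Width differed there as well, at 277 bp against 127 bp in the T set and 241 bp against 120 bp in the S set. The parts of density and width in the overlap were not tested.

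The promoter preference was seen in every bin of NC density that held at least 20 promoter regions. Among T set regions of density 5 to 6, 5.12% of promoter regions overlapped (51 of 997, 3.91% to 6.66%) and 1.46% of the others (208 of 14300, 1.27% to 1.66%). Between densities of 20 and 40 the shares were 34.7% of 1200 (32.0% to 37.4%) and 10.8% of 3610 (9.83% to 11.9%), and from a density of 40 they were 63.9% of 194 (57.0% to 70.3%) and 32.6% of 347 (27.9% to 37.7%). The share therefore climbed with density in both classes and stayed higher in promoters. S set regions of density 5 to 6 overlapped in 37.6% of 290 promoter regions (32.2% to 43.3%) and in 5.10% of 3942 others (4.46% to 5.83%), and those of density 12 to 20 in 71.6% of 377 (66.9% to 75.9%) and 18.2% of 1667 (16.4% to 20.1%). From a density of 40 the S set held 3 promoter regions, of which 2 overlapped, beside 72.3% of 137 others (64.2% to 79.1%), and no preference can be read there.

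**Figure D3:**
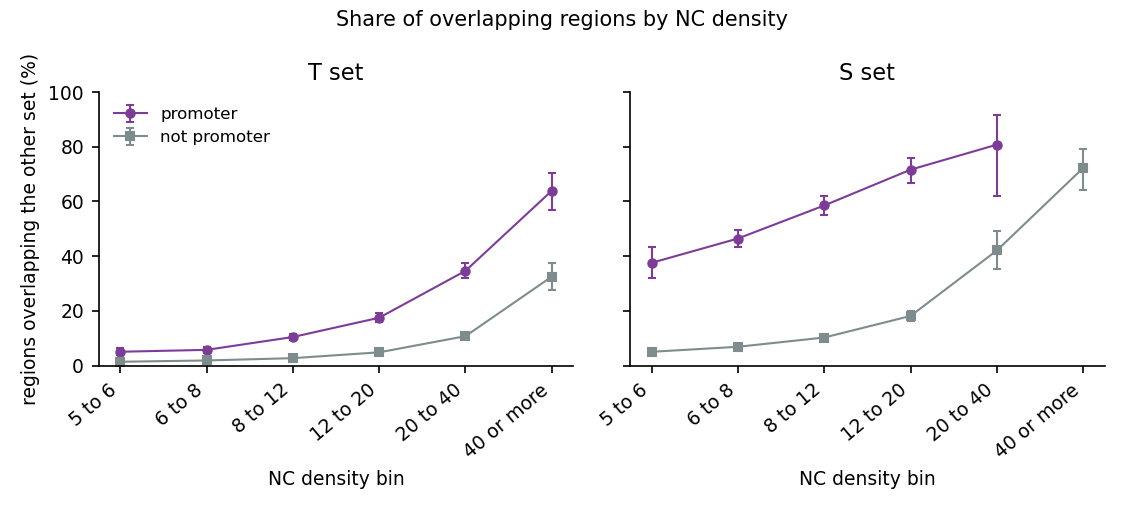
Share of regions (%) that overlap a region of the other set, by bin of NC density, for promoter regions and all others in the T set (left) and the S set (right), with Wilson 95% intervals. The S set bin from 40 holds too few promoter regions to be drawn. In every bin drawn the promoter share is the higher, from 5.12% against 1.46% to 63.9% against 32.6% in the T set.

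Within pairs, density in the T set said little about density in the S set apart from the densest sites. Over all 3611 pairs Pearson's r of the log2 densities was 0.46 and Spearman's rho 0.22. Without regions of 500 reads or more r was 0.31 and rho 0.21 over 3584 pairs. With pairs left out in which either density was above 40, which narrows the range further, r was 0.17 and rho 0.13 over 3304 pairs. Pairs with no gene assigned gave r of 0.69 and rho of 0.34 (1028 pairs), pairs in promoters 0.30 and 0.27 (1202) and pairs in introns 0.42 and 0.16 (806). These values describe pairs of 2 libraries, and neighbouring pairs share reads.

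**Figure D4:**
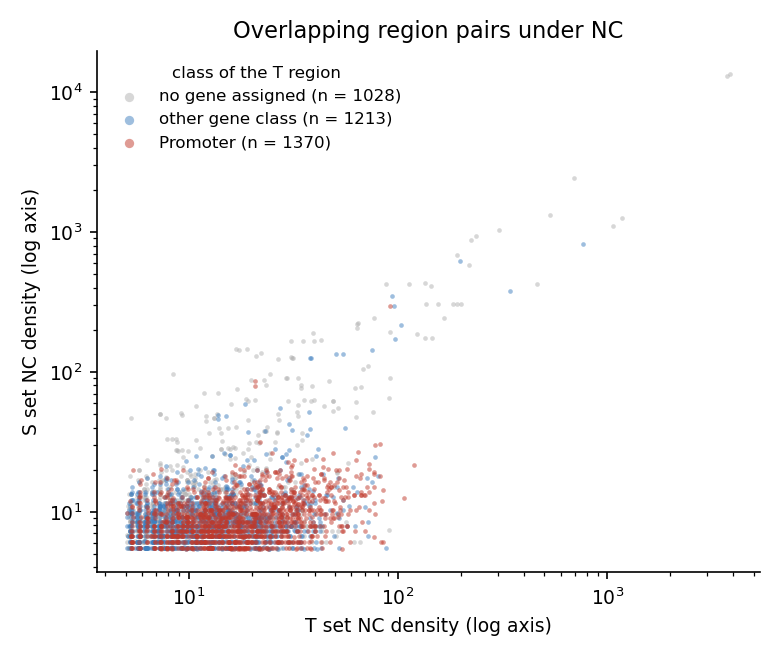
Normalized read density under NC of the T set region (horizontal, log axis) and the S set region (vertical, log axis) of each of the 3611 overlapping pairs, coloured by the annotation class of the T set region. Promoter pairs lie mostly below an S set density of 30, and the points that extend to high density in both sets are mostly of regions with no gene assigned.

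Few T only and S only regions had a row in the table of the other set. Of the T only regions, 1307 (1.72%) overlapped a row of the S set table that was below the threshold, with a median of 5 S set reads (0 to 7), and 572 of these had an S set density between 4 and 5. The other 74495 overlapped no row of that table at all. Of the S only regions, 1106 (4.70%) overlapped a T set row below the threshold, with a median of 5 T set reads (0 to 9), and 22442 overlapped none. The tables hold called peaks only, so that regions without a row have no value for the other set and how near they came to the threshold is not known. The nearest S set member was a median of 31.8 kb from a T only region (quartiles 12.3 and 70.5 kb), and the nearest T set member 12.9 kb from an S only region (4.55 and 29.9 kb). Within 1 kb there was a member of the other set for 3076 T only regions (4.06%) and 2153 S only regions (9.14%).

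The next question was which genes carried the overlap. T set regions were assigned to 17394 of 24258 genes (71.7%) and S set regions to 8202 (33.8%). Regions of both sets fell to 6433 genes, which were 37.0% of the T set genes and 78.4% of the S set genes. An overlapping pair was found at 2266 genes (9.34% of all), or 35.2% of the genes with regions of both sets (34.1% to 36.4%). The count was 1230 genes with only peaks called in NC and 574 at a density threshold of 10. In the main count, 4167 genes had regions of both sets and no pair, so that sharing a gene mostly did not mean sharing a site. Genes with regions of both sets but no overlap were long, with a median span of 37.6 kb, against 28.2 kb for genes with a pair, 13.6 kb for genes with T set regions only and 10.3 kb for genes with S set regions only.

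Genes shared by promoter regions were fewer, but their regions met more often. Of 7138 genes with a T set promoter region and 2298 with an S set promoter region, 1335 had both, which is 18.7% of the former (17.8% to 19.6%) and 58.1% of the latter (56.1% to 60.1%), against 37.0% and 78.4% when regions of any class count. Of these 1335 genes, 1089 had promoter regions that overlapped, whereas 2266 of the 6433 genes with regions of both sets in any class had a pair. Genes annotated as transcription factors were 6.84% of the genes with a pair (155, 5.87% to 7.95%) and 4.99% of all genes (1210). The share was 6.95% among genes with S set regions only (123, 5.86% to 8.23%), and so it was not particular to overlap.

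Gene lists chosen for the known targets of SRF and TAZ had T set regions at a larger share of genes than the 71.7% of all genes, and S set regions at a share below the 33.8% of all genes in 3 of the 4 lists. All 22 SRF contractile and cytoskeletal targets with a row had a T set region, 6 had an S set region, and 3 had an overlapping pair (Fhl2, Vcl and Zyx), against the 9.34% of all genes. Of 13 SRF immediate early targets with a row, 11 had a T set region, 2 an S set region (Egr3 and Srf), and none a pair. Of 23 YAP/TAZ targets, 22 had a T set region, 7 an S set region and 3 a pair (Amotl2, Asap1 and Rbms3). Of 22 Hippo pathway and TEAD genes, 19 had a T set region, 11 an S set region (50% of the list) and 3 a pair (Amotl2, Stk3 and Vgll3). Genes of 3 of these lists are longer than most, with median spans of 25.1, 34.5 and 71.7 kb for the contractile, YAP/TAZ and Hippo lists against 14.5 kb for all genes, and a longer gene has more room for regions. The part of gene length in the counts was not tested.

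The remaining lists give the scale of the background. Of all genes, 71.7% had a T set region, 33.8% an S set region and 9.34% a pair. Of 7 SRF cofactor genes, 7 had a T set region, 5 an S set region and 2 a pair (Elk3 and Mrtfb). All 17 matrix and myofibroblast genes with a row had a T set region, 3 had an S set region (Col1a1, Fap and Fn1) and none had a pair, and 10 of 12 cardiac fibroblast transcription factor genes had a T set region, 2 an S set region (Runx1 and Tbx5) and none a pair. Of 55 cytosolic ribosomal protein genes, 36 had a T set region, 10 an S set region and 4 a pair. Among 15 long neuronal genes, which span a median of 1643 kb and are not expected to be used in fibroblasts, 15 had a T set region, 14 an S set region and 5 a pair. Pairs were found at 1 of 10 cardiomyocyte markers (Ryr2) and at 0 of 9 endothelial, 0 of 8 macrophage and 0 of 5 fibroblast markers.

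Vcl encodes vinculin, which links actin to adhesions, and is a known SRF target. Its T set promoter region (ENSMUSG00000021823, chr14:20979024-20979503) held 31 reads in NC, 76 with TGF-b and 36 with the siRNA, and its S set promoter region (chr14:20979081-20979377) held 13, 29 and 20. The T set density was 16.2 in NC and 38.1 with TGF-b, and the log2 ratio was 1.24 (0.67 to 1.86). The S set density was 8.47 and 12.4, with a log2 ratio of 0.55 (-0.32 to 1.54). The T set difference was larger than counting error and the S set difference was not. On recovered reads without the line of the authors, the S set ratio was 1.10 (0.23 to 2.09) and exceeded it, so that the S set call depends on the rescaling. Leaving out the line shifts nearly all S set members upwards by a similar amount (median 0.57 on the log2 scale), and the interval at Vcl includes the median of all S set rows on that scale, 0.36. Among the promoters printed, that of Vcl held both a CArG box and a TEAD match.

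Zyx and Fhl2, further cytoskeletal genes counted as SRF targets, also had pairs at the gene start. Zyx encodes zyxin, a protein of focal adhesions, and its T set promoter region (chr6:42326401-42326930) held 107, 182 and 120 reads in the 3 libraries while its S set region (chr6:42326381-42326850, 5′ UTR) held 24, 46 and 36. The Fhl2 T set region (chr1:43202990-43203159, 5′ UTR) held 13, 28 and 14 reads and its S set region (chr1:43203036-43203265, promoter) held 21, 23 and 14. The T set log2 ratio of TGF-b to NC was 0.64 at Zyx (0.30 to 0.99) and 1.11 at Fhl2 (0.23 to 2.09), and the S set ratios were 0.38 (-0.30 to 1.11) and -0.42 (-1.26 to 0.43). On reads without the line the S set ratios were 0.91 at Zyx (0.23 to 1.64, which includes 0.36) and 0.13 at Fhl2 (-0.71 to 0.97).

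Amotl2 encodes a junction protein that binds YAP and TAZ and is itself among their known targets. Its T set region (ENSMUSG00000032531, chr9:102594738-102595032, 5′ UTR) was dense in NC at 33.2, with 64 reads in NC, 84 with TGF-b and 30 with the siRNA. Its S set region (chr9:102594596-102594925, promoter) was near the threshold at 6.09, with 9, 15 and 16 reads, and 9 reads carry a Poisson 95% interval of 4.12 to 17.1. The log2 ratios of TGF-b to NC, 0.32 (-0.14 to 0.79) for T and 0.11 (-0.99 to 1.33) for S, did not exceed counting error, and neither did those on reads without the line, 0.39 (-0.07 to 0.86) and 0.68 (-0.42 to 1.90).

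Stk3, which encodes the Hippo kinase MST2, and Vgll3, which encodes a TEAD cofactor, had promoter pairs with similar reads. The Stk3 regions (chr15:35155875-35156241 and chr15:35155818-35156171) held 27, 57 and 44 T set reads and 10, 35 and 42 S set reads in NC, TGF-b and TGF-b with siRNA. The Vgll3 regions (chr16:65611791-65612170 and chr16:65611843-65612210) held 27, 60 and 44 T set reads and 9, 35 and 42 S set reads. Reads were higher with TGF-b than in NC at all 4 regions, with log2 ratios of 1.04 (0.41 to 1.72) and 1.11 (0.49 to 1.79) in the T set and 1.16 (0.26 to 2.25) and 1.29 (0.37 to 2.44) in the S set.

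The pairs at Elk3, Rbms3 and Asap1 lay in introns and the pair at Mrtfb in a promoter. Elk3 encodes a ternary complex factor, and its intron 1 regions (chr10:93123603-93123956 and chr10:93123699-93123826) held 72, 25 and 55 T set reads and 11, 10 and 9 S set reads. The Rbms3 regions with the highest T set density of its 3 pairs (chr9:117662636-117662963 and chr9:117662883-117662962) held 78, 31 and 11 T set reads and 15 and 17 S set reads in NC and TGF-b. The T set log2 ratios of TGF-b to NC were -1.51 (-2.19 to -0.89) at Elk3 and -1.33 (-1.96 to -0.76) at Rbms3. Both regions were chosen for high NC density. Among overlapping T set regions outside promoters called as peaks in NC, the median was -0.87 and 44.4% were at least 2-fold lower. The S set ratios of -0.70 (-1.91 to 0.49) and -0.39 (-1.36 to 0.61) did not exceed counting error. Nor did the S set ratios on reads without the line, -0.13 at Elk3 (-1.34 to 1.06) and 0.17 at Rbms3 (-0.80 to 1.16). At Mrtfb, which encodes an MRTF coactivator of SRF, the promoter regions (chr16:13175754-13175929 and chr16:13175749-13175944) held 34, 21 and 9 T set reads and 8, 13 and 8 S set reads.

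Several of the best known targets of TAZ and SRF had T set regions and no S set member assigned to them, as had 45.2% of all genes. Ccn2, which encodes connective tissue growth factor and is a classical YAP/TAZ target, had a dense T only region that met no S set row (ENSMUSG00000019997, chr10:24471483-24471791, exon 1). It held 150 reads in NC, 115 with TGF-b and 54 with the siRNA, its density was 78.6, and the log2 ratio of TGF-b to NC was -0.50 (-0.85 to -0.15). All T only regions outside promoters, likewise chosen for high NC density, had a median ratio of -1.33. A T set region at the promoter next to it (chr10:24471110-24471430) held 109 reads. The nearest S set member, singled out after its value was seen, lay in exon 4 of the gene (chr10:24472662-24472782, assigned by the authors to Gm15270) with 19 reads, 0.871 kb away. It lay 0.031 kb from another T set region, in intron 3 of Ccn2 (chr10:24472364-24472631, 121 reads), without sharing a base with it, so that Ccn2 is T only by assignment and by overlap and not by distance.

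Ankrd1, another YAP/TAZ target, had a T only promoter region (chr19:36097169-36097564) of density 26.5 with 52 reads in NC, 25 with TGF-b and 32 with the siRNA, and a log2 ratio of -1.03 (-1.74 to -0.38). Ccn1 had a T only region in exon 2 (chr3:145355109-145355182) of density 20.4 with 40 reads in NC and 25 with TGF-b, a ratio of -0.65 (-1.38 to 0.05) that did not exceed counting error. Wwtr1, the gene of TAZ, had 10 T set members of density up to 28.4, and Yap1 had 1 of density 5.28. The densest at Wwtr1 held 56 reads in NC and 18 with TGF-b, with a log2 ratio of -1.58 (-2.39 to -0.87). These regions were picked for high NC density, so their ratios are not independent of the choice. The median was -0.30 over T only promoter regions and -1.33 over other T only regions, and the interval at Wwtr1 includes the latter. No S set member was assigned to any of these 4 genes, while Yap1 had 1 S set row below the threshold. Of all genes, 45.2% had T set and no S set regions.

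T only regions without an S set member were also found at SRF targets, as at 45.2% of all genes. These were Egr1 (5′ UTR, density 35.2, with 68, 71 and 22 reads in NC, TGF-b and siRNA), Junb (promoter, 20.3, with 39, 74 and 23 reads), Acta2 (5′ UTR, 18, with 35, 36 and 8 reads), Myl9 (promoter, 15.8, with 31, 22 and 7 reads), Tagln (promoter, 11.9, with 23, 33 and 28 reads) and Actb (promoter, 9.93, with 19, 42 and 15 reads). Acta2 encodes smooth muscle actin, the usual myofibroblast marker, and Egr1 and Junb are immediate early genes. Reads at Junb and Actb were higher with TGF-b than in NC beyond counting error, with log2 ratios of 0.87 (0.33 to 1.44) and 1.12 (0.39 to 1.94). The ratios at the other 4 genes, from -0.45 at Myl9 to 0.52 at Tagln, did not exceed it. No S set member was assigned to any of these 6 genes, and Fos had no row in either table.

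Srf, Tead1 and Col1a1 had regions of both sets that did not meet. The densest T set region of Srf lay 1 to 2 kb before its start (chr17:46864538-46864623, density 11.99, with 23 reads in NC and 51 with TGF-b), and its S set region (chr17:46889854-46889926, with 9 and 11 reads) lay 25.23 kb away in an intron of another gene. At Tead1 the densest T set region (chr7:112319320-112319460, 32 reads) and the densest S set region (chr7:112237631-112237815, 22 reads) were far apart, the first in intron 1 of Tead1 and the second in an intron of another gene model, among 18 T set and 4 S set members. The Col1a1 regions lay in exon 36 (chr11:94837864-94837961, 14 T set reads in NC and 4 with TGF-b) and intron 31 (chr11:94836519-94836601, 11 and 6 S set reads). The densest T only region assigned to Postn (11.9) lay upstream of it in exon 4 of another gene, and that of Tet3 (13.1) in intron 2 of Tet3 itself. Their log2 ratios of TGF-b to NC were -2.93 (-5.39 to -1.52) and -2.07 (-3.62 to -0.95), but both regions were picked as the densest in NC. T only regions outside promoters had a median of -1.33, which the interval at Tet3 includes and that at Postn does not. Neither gene had an S set member.

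Among pairs with a gene assigned, under 500 reads and not on chromosome 18, those that ranked highest in both sets at once were not at these targets. Wipi1, which encodes a phosphoinositide-binding protein of autophagy, had promoter regions (ENSMUSG00000041895, chr11:109502205-109502803 and chr11:109502184-109502763) with 146, 253 and 205 T set reads and 49, 88 and 103 S set reads in NC, TGF-b and siRNA. Garnl3 had promoter regions (ENSMUSG00000038860, chr2:33020575-33021410 and chr2:33020669-33021395) with 155, 267 and 157 T set reads and 50, 82 and 100 S set reads. At both genes the T set density was higher with TGF-b beyond counting error, with log2 ratios of 0.64 (0.35 to 0.93) and 0.62 (0.34 to 0.91), and the S set ratios of 0.33 (-0.16 to 0.84) and 0.20 (-0.30 to 0.71) were not. On reads without the line these S set ratios were 0.83 (0.34 to 1.35) and 0.70 (0.21 to 1.22), both above 0 beyond counting error but with intervals that include the median of 0.36 over all rows, so that a contrast between the sets cannot be read here. The promoter of Wipi1 printed above is the one with 8 SP and KLF matches.

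Tsga10, Clec11a and Ppp2r3d also had pairs within 2 kb of a gene start. Tsga10 (chr1:37903905-37904501 and chr1:37903827-37904491) held 123, 159 and 62 T set reads and 44, 76 and 57 S set reads. Clec11a, in intron 3 (chr7:43954319-43955043 and chr7:43954419-43955044), held 79, 141 and 112 T set reads and 46, 80 and 106 S set reads. Ppp2r3d, in intron 1 (chr9:124196776-124197174 and chr9:124196772-124197134), held 72, 220 and 49 T set reads and 65, 147 and 137 S set reads, and at this gene both log2 ratios exceeded counting error, at 1.49 (1.12 to 1.88) for T and 0.67 (0.27 to 1.11) for S.

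The other pairs of high rank lay in introns, with that at Sfi1 only 228 and 312 bp from its gene start. D130079A08Rik (chr14:104574388-104574486 and chr14:104574388-104574481) held 110, 16 and 60 T set reads and 65 and 20 S set reads, with log2 ratios of TGF-b to NC of -2.72 (-3.55 to -2.05) and -2.18 (-2.94 to -1.51). 2700054A10Rik (chr17:13810656-13811056 and chr17:13810571-13811831) held 105, 66 and 168 T set reads and 228, 177 and 165 S set reads, with ratios of -0.74 (-1.19 to -0.30) and -0.83 (-1.11 to -0.55). Both pairs were named for high NC density, so their ratios are not independent of the choice. Overlapping regions outside promoters had medians of -0.62 for T and -0.48 for S. Actr3b (chr5:26022075-26023447 and chr5:26022092-26023337) held 142, 203 and 227 T set reads and 243, 326 and 246 S set reads. The pairs at Sfi1 (chr11:3137013-3137241 and chr11:3136816-3137270) and Gm12735 (chr11:3146410-3146836 and chr11:3146410-3146846) lay, the latter in intron 2 of another gene model, in 1 stretch of 12.95 kb on chromosome 11, which held 6 T set members with 71 to 185 reads and 5 S set members with 83 to 510 reads.

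Several of the densest regions without overlap sat beside an overlapping pair. The T only regions at Ntmt1 (chr2:30697311-30697388, 149 reads) and 4932412D23Rik (chr16:42695503-42695633, 142 reads) each had a T set neighbour within 1 kb, of 156 and 142 reads, that overlapped an S set region of 29 and 26 reads. The S only regions at Plk5 (chr10:80198038-80198143, 81 reads) and at ENSMUSG00000095041 on an unplaced scaffold (134 reads) likewise had overlapping S set neighbours within 1 kb, of 76 and 82 reads and of 134 and 145 reads. Reads were counted in windows of 2 kb, so that such neighbours share most of their reads. Over all members, 924 T only regions (1.22%) and 205 S only regions (0.871%) lay within 1 kb of an overlapping region of their own set. Sertad2 (chr11:20581733-20581994, promoter, 151, 183 and 105 T set reads) and Gm56649 (chr19:5861557-5861631, promoter, 199 T set reads in NC and 148 with TGF-b) had no S set member within 1 kb, and neither had Eif4enif1 (chr11:3149544-3149765, 114 S set reads) or Gm20528 (chr1:88145914-88146044, 88 S set reads) a T set member.

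The last question was how dense the sites of overlap in NC were in the other libraries. The TGF-b library had a part in choosing the members, since a table lists merged peaks of both libraries and a member that was no peak in NC is listed only through TGF-b. Peaks had been called in NC at 84.5% of overlapping T set, 87.9% of T only, 67.1% of overlapping S set and 74.8% of S only regions. The values over all members are given as a description, followed by those over peaks called in NC. In the TGF-b library, density was 5 or more at 79.6% of the overlapping T set regions (2843, 78.2% to 80.9%) and 37.7% of T only regions (28607, 37.4% to 38.1%), against 30.0% of all T set rows. In the S set the shares were 73.0% of the overlapping regions (2545, 71.5% to 74.4%) and 39.4% of S only regions (9275, 38.77% to 40.01%), against 40.7% of all rows. The median density with TGF-b was 12.7 in overlapping and 3.64 in T only regions, and 7.83 in overlapping and 4.50 in S only regions. With members of both sets limited to regions called as peaks in NC, an alternative chosen after seeing the data, the shares were 72.8% of 2087 overlapping (70.9% to 74.7%) and 33.3% of 67539 T only regions (32.9% to 33.6%), and 61.9% of 2051 overlapping (59.75% to 63.95%) and 27.2% of 17899 S only regions (26.5% to 27.8%). Of all rows called in NC, 22.9% for T and 24.6% for S reached 5.

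Among peaks called in NC in both sets, the gap was also present at equal NC density in the sparser regions. Of T set regions of density 5 to 6 in NC, 42.0% of the 143 overlapping (34.2% to 50.15%) and 15.1% of the 12964 T only regions (14.5% to 15.7%) reached a density of 5 with TGF-b. At 12 to 20 the shares were 80.4% and 57.8%, and from 40 they were 98.8% (95.7% to 99.7%) and 96.3% (93.8% to 97.85%), with intervals that overlapped. S set regions of density 5 to 6 gave 30.8% of 120 (23.3% to 39.6%) and 14.4% of 2619 (13.1% to 15.8%), and at 12 to 20 the shares were 84.6% and 60%. At 20 to 40 they were 94.9% (87.5% to 97.99%) and 93.0% (85.6% to 96.8%), and from 40 all S set regions of both groups reached 5. Over all members, with those listed only through TGF-b, the shares at 5 to 6 were 58.3% and 21.7% for T and 64.8% and 32.5% for S.

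**Figure D5:**
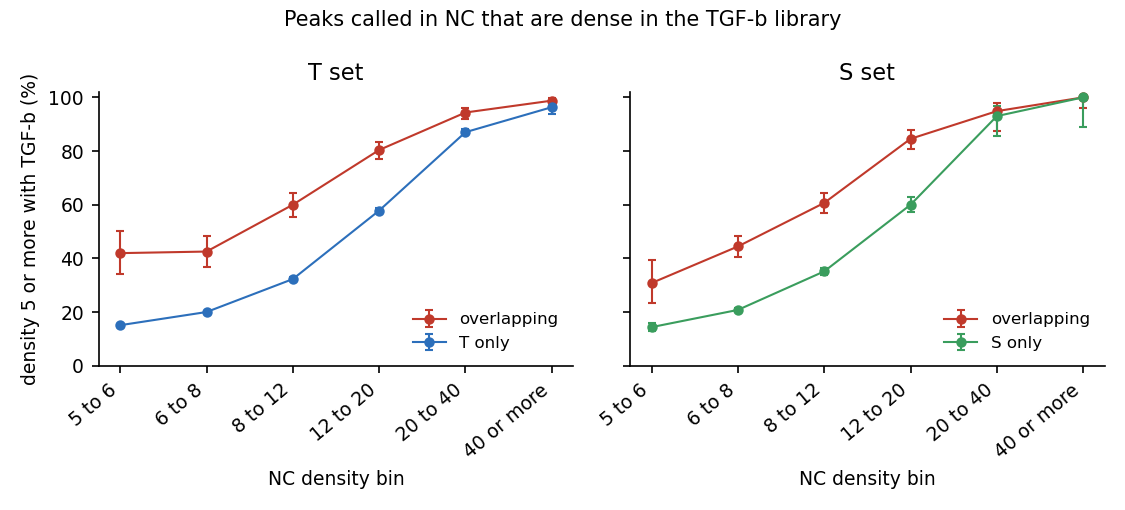
Share of peaks called in NC (%) with a density of 5 or more in the TGF-b library, by bin of NC density, for overlapping regions and for T only (left) and S only (right) regions, with Wilson 95% intervals. Overlapping regions lie above the others at low density, by 42.0% against 15.1% in the first T set bin, and the S set groups meet from a density of 20.

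The siRNA libraries come from second tables, joined by an overlap of 1 bp, and members without a row there were counted as below 5. A row was found for 72.0% of overlapping T set and 25.8% of T only regions, and for 65.3% of overlapping S set and 29.0% of S only regions, so that the shares over all members partly reflect having a row. Density was 5 or more in 59.7% of overlapping T set regions (2133) and 14.5% of T only regions (11007), and in 59.1% of overlapping S set regions (2061) and 12.1% of S only regions (2850). Among members with a row, an alternative chosen after seeing the data, the shares were 82.9% of overlapping T set (81.4% to 84.3%) and 56.4% of T only regions (55.7% to 57.1%), and 90.55% of overlapping S set (89.3% to 91.7%) and 41.7% of S only regions (40.5% to 42.9%). Of all rows of the second tables, 42.3% for T and 45.8% for S reached 5. Peaks had been called in both NC and TGF-b at 49.0% of overlapping and 8.70% of T only regions, and at 19.6% of overlapping and 1.61% of S only regions, against 5.42% of all T set rows and 2.17% of all S set rows.

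The change with TGF-b differed between overlapping regions at promoters and elsewhere. Members were selected on high NC density, and some are listed only through a TGF-b peak, so the ratio of TGF-b to NC is not independent of the choice, and it is set beside the median of all rows, which was -0.65 for the T set table and -0.20 for the S set table. Overlapping promoter regions had a median of 0.40 for T (quartiles -0.08 and 0.86) and 0.27 for S (-0.20 and 0.67). Overlapping regions elsewhere had -0.62 and -0.48, promoter regions without overlap -0.30 and -0.44, and other regions without overlap -1.33 and -0.84. With both sets limited to peaks called in NC, the medians of overlapping promoter regions were 0.28 for T (601 regions, quartiles -0.26 and 0.74) and 0.02 for S (597 regions, -0.48 and 0.43), those of overlapping regions elsewhere -0.87 and -0.80, of promoter regions without overlap -0.43 and -0.66 and of other regions without overlap -1.48 and -1.11. The medians of all rows called in NC were -1.16 and -0.99. Overlapping promoter regions had the highest median of the 4 groups in both sets either way, but for S it was near 0 among peaks called in NC. That S set value depends on the rescaling. On recovered reads without it the median was 0.56, beside -0.415 for all S set rows called in NC. On recovered reads without the authors' rescaling the T set medians kept their signs, while those of overlapping S set regions elsewhere and of S only promoter regions turned to 0.08 and 0.14, below the S set median of 0.36 over all rows on that scale.

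Counts of larger changes followed. In the T set, 247 overlapping promoter regions (18.2%) were at least 2-fold higher with TGF-b and 62 (4.58%) at least 2-fold lower, while elsewhere 126 overlapping regions (5.68%) were higher and 825 (37.2%) lower. Over all T set rows these shares were 17.3% and 42.1%. In the S set, 130 overlapping promoter regions (10.1%) were higher and 77 (5.99%) lower, and elsewhere 67 (3.04%) were higher and 663 (30.1%) lower, against 17.4% and 26.7% of all rows. T only promoter regions were higher in 650 (8.64%) and lower in 2184 (29.0%) and S only promoter regions in 42 (3.74%) and 289 (25.8%). Other regions without overlap were lower in 59.3% for T and 42.2% for S. The lower counts were thus below the background for promoter regions with or without overlap, narrowly so for S only, and above it for other regions without overlap. The rows behind these backgrounds include many listed only through TGF-b. Among peaks called in NC, overlapping promoter regions were at least 2-fold higher in 13.3% for T (10.8% to 16.3%) and 3.35% for S (2.18% to 5.12%). Promoter regions without overlap were higher in 6.32% and 1.02%, and all rows called in NC in 2.72% and 0.543%. Overlapping promoter regions were at least 2-fold lower in 7.99% and 10.4%, promoter regions without overlap in 32.7% and 33.5%, and all rows called in NC in 55.7% and 49.3%. Promoter regions without overlap thus differed from all rows in the same direction. With 1 library per treatment these differences could not be set against the spread between cultures.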

How the data were processed

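CUT&Tag libraries of primary cardiac fibroblasts were compared as the authors deposited them, in 4 tables that each hold the merged peaks of 2 libraries of a set. According to the methods the authors used Bowtie2 with GRCm39 for alignment and named Masc2 as the peak caller, whereas the processing notes of the submitters list BWA 0.7.12 and mm10. Gene starts in the tables matched those of GRCm38.p6 within 1 kb in 2.58% of 19521 genes, and coordinates are given as deposited. The signal deposited by the authors is a normalized read density, reads plus 1 over a window of 2 kb, which the authors rescaled along a line in the deposited mean log2 density. Densities within the 2 libraries of a table are comparable, and tables were normalized separately. The deposited fold changes and p-values of the authors' own comparison were not used, and 0 columns of other samples were present.

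The line was undone to recover reads, which were whole within 0.1 in 99.97% to 99.99% of regions, and regions were read, overlapped and counted with Python 3.11.15, pandas 2.3.3, numpy 2.4.6 and scipy 1.17.1. The recovery and overlap steps were tested on simulated data. Intervals of shares are Wilson 95% intervals, intervals of reads are Poisson intervals, and that of a log2 ratio was derived from the Wilson limits on the TGF-b part of the reads of both libraries. They cover counting error only. Depth is given as reads per region, and library totals were not used. With 1 library per group, no test was run.

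The members, gene lists and named genes were chosen with earlier results of these data known. Genes were named by 3 rules: the 10 overlapping pairs with the highest lower rank of NC density in the sets, the 5 T only and 5 S only regions of highest density that overlap no row of the other table (each 1 region per gene, with a gene assigned, under 500 reads and not on chromosome 18), and 19 preselected genes. Other genes with a pair from the lists are also given. Motif shares of the promoter groups cover only the 76.8%, 71.7% and 66.4% of their genes that had a RefSeq promoter in the table used. Differences between the groups were not tested. Alternatives were thresholds of 3 and 10, an overlap of 50% of the shorter region, midpoints within 1 kb, autosomes, regions under 500 reads, peaks called in NC, densities without the line, equal numbers of regions in the sets, and a distance of 1 kb from a gene start in place of the promoter class. Ratios on reads without the line and siRNA shares over members with a row, TGF-b shares and ratios with both sets limited to peaks called in NC, and the share of promoter regions that overlap under each alternative were added after seeing the data.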

Additional observations from a re-analysis of the deposited data

Results flagged for a closer look

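Of the 30 overlapping pairs at named or listed genes, 9 had log2 ratios of TGF-b to NC with opposite signs in the sets, beside 30.7% of all 3611 overlapping pairs (1110, 29.3% to 32.3%). At 6 of them the signs were also opposite on reads without the line, as in 32.8% of all pairs (1184). At Gm12735 the T set ratio was -1.03 (-1.39 to -0.68) and the S set ratio 0.04 (-0.18 to 0.26), a difference of -1.07. At Asap1 they were 0.62 (-0.31 to 1.61) and -1.77 (-3.22 to -0.58), a difference of 2.38. At Cntnap2 they were -1.95 (-3.96 to -0.60) and 0.28 (-0.79 to 1.49), a difference of -2.23. At Lsamp they were 0.15 (-0.81 to 1.12) and -2.40 (-4.41 to -0.995), a difference of 2.55. At Mrtfb they were -0.65 (-1.45 to 0.11) and 0.06 (-1.11 to 1.36), a difference of -0.71, and at Rps19 -0.46 (-1.07 to 0.13) and 1.27 (0.30 to 2.49), a difference of -1.74.

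At the other 3 pairs both ratios were above 0 on reads without the line. Fhl2 had 1.11 (0.23 to 2.09) for T and -0.42 (-1.26 to 0.43) for S, a difference of 1.53, and 1.05 and 0.13 on reads. Sfi1 had 0.19 (-0.25 to 0.64) and -0.29 (-0.55 to -0.02), a difference of 0.48, and 0.26 and 0.17 on reads. Actr3b had 0.37 (0.07 to 0.68) and -0.03 (-0.27 to 0.21), a difference of 0.40, and 0.51 and 0.42 on reads. On the density scale the counting interval of at least 1 of the ratios includes 0 at each of the 9 pairs. On reads the ratios at Gm12735 both exceed counting error with opposite signs, at -0.91 (-1.27 to -0.56) for T and 0.48 (0.27 to 0.70) for S. The medians of all rows on that scale were -0.78 for T and 0.36 for S, of the same signs, and both intervals include them. The differences were not tested, since each ratio rests on 1 library per treatment.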

How the results depend on the processing

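Under 10 alternatives the promoter share kept its order (overlapping, then T only, then S only) in all 10, and overlapping regions had the higher median NC density in either set in all 9 that gave a median. Of 103 values, 43 stayed within the counting interval of the main value (or, for genes, within 1.5 times) and 60 did not. All values stayed within it with autosomes only and without regions of 500 reads or more.

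Values are given in the order S set overlapping share, T set overlapping share, promoter share of overlapping T set, T only, S only and overlapping S set regions, median density of overlapping T set, T only, overlapping S set and S only regions, and genes with a pair, as far as they moved. A threshold of 3 gave 11.9%, then promoter shares of 33.6%, 7.99%, 4.28% and 32.6%, and medians of 10.8, 6.18, 7.31 and 5.55. A threshold of 10 gave 18.5%, 3.42%, 44.6%, 16.4%, 7.41%, 44.6%, 21.7, 13.7, 13.3, 11.6 and 574 genes. An overlap of 50% of the shorter region gave 11.4%, 3.95%, promoter shares of 40.6% and 39.9% in overlapping T set and S set regions, and a median of 13.9 in overlapping T set regions. Midpoints within 1 kb gave 20.3%, 8.06%, 27.7% in overlapping T set, 4.35% in S only and 26.8% in overlapping S set regions, and medians of 11.3 and 8.01 in the overlapping regions. Peaks called in NC gave 10.3%, 2.997%, 28.8%, 9.66% in T only and 29.1% in overlapping S set regions, medians of 8.14, 9.15 and 7.34 in T only, overlapping S set and S only regions, and 1230 genes. Densities without the line gave 14.5%, 3.84%, 9.59% in T only regions, and medians of 8.0, 7.5 and 6.5 in T only, overlapping S set and S only regions. Equal numbers of regions, 27035 in either set, gave 8.41%, 8.66%, 45.7%, 14.9%, 5.63%, 44.6%, 18.3, 13.7 and 9.08. Regions within 1 kb of a gene start were 47.2% of overlapping T set, 13.8% of T only, 7.27% of S only and 47.2% of overlapping S set regions.

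On reads without the line, an alternative chosen after seeing the data, the median log2 ratio of TGF-b to NC changed sign in overlapping S set regions outside promoters (0.078) and in S only promoter regions (0.14). Of the 30 S set regions of the pairs at named or listed genes, 4 then changed sign (Actr3b to 0.42, Fhl2 to 0.13, Sfi1 and Rbms3 to 0.17), 9 came to exceed counting error and 3 no longer did, while of the 30 T set regions 2 came to exceed it. These follow from a shift of a median of 0.57 common to S set members and do not single out these pairs. The causes were not tested. No paired analysis was possible because each group held 1 library. Regions near the threshold differ from members by 1 read, which limits how far a single region can be called T only or S only.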
